A study of Mus musculus with 16 samples.

Results

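The prostaglandin genes described here are 6 enzymes of prostanoid synthesis and breakdown, namely the cyclooxygenases Ptgs1 and Ptgs2, the terminal synthases Ptges, Ptgis and Ptgds, and the inactivating enzyme Hpgd. They were chosen by gene symbol from a raw count table of 37003 genes, each symbol matched 1 row, and all 6 were among the 31085 genes that passed the filter on low counts. The table held 16 libraries of freshly sorted brain endothelial cells (bECs; DAPI-, CD45-, CD31+), 4 in each of 4 groups. CTRL sham and CTRL MCAo came from mice with floxed Yap and Taz alleles (Yap fl/fl, Taz fl/fl) that lacked Cre. YT-iKO sham and YT-iKO MCAo came from adult littermates with the same floxed alleles plus the tamoxifen-inducible Pdgfb-iCreER-eGFP deleter. All mice, controls included, received tamoxifen before surgery, and both sexes were used. MCAo mice underwent 30 min of middle cerebral artery occlusion followed by reperfusion, sham mice underwent surgery without occlusion, and RNA was extracted 72 hours after surgery. Tissue of several mice was pooled for a replicate, and the dissection took the ischemic territory and the matching area of the other hemisphere; whether both entered the same sample is not given in the sources used here.

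Prostaglandins are short-lived lipid signals made from arachidonic acid, which phospholipases free from membranes. The cyclooxygenases COX-1 (Ptgs1, commonly expressed at a steady level) and COX-2 (Ptgs2, inducible by inflammatory cytokines) turn it into a common precursor, from which microsomal prostaglandin E synthase (Ptges) makes prostaglandin E, the mediator of fever and vascular inflammation, prostacyclin synthase (Ptgis) makes the vasodilator prostacyclin, and lipocalin-type prostaglandin D synthase (Ptgds) makes prostaglandin D. 15-hydroxyprostaglandin dehydrogenase (Hpgd) inactivates prostaglandins after uptake into cells. Brain endothelium is known for inducing COX-2 together with microsomal prostaglandin E synthase in response to circulating cytokines.

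The question here was whether these genes changed 72 hours after ischemia in bECs and whether the loss of endothelial YAP/TAZ altered them. In the model as reported, Ptgs2 was the only member called in any of 5 comparisons across all genes. These comparisons called between 0% and 0.318% of all tested genes. Some alternative settings also called Ptgs1 or Ptges after MCAo, as given below. The mean level of Ptgs2 rose 3.00-fold after MCAo in CTRL and 3.57-fold in YT-iKO. No member was called between the genotypes, where 0.0965% of all tested genes were called after sham and 0.0708% after MCAo. Ptges was about equally high in both genotypes in the same 4 MCAo libraries in which Ptgs2 was highest. The other 4 MCAo libraries lay within the range of the sham libraries, and Ptges was not called in the model as reported. This placing of Ptges held with TMM factors over all genes and changed with factors from abundant genes, as given below.

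The promoter sequences of the 3 genes that the comparisons turn on most, COX-2, its functional partner and the steady cyclooxygenase, are given first, since Ptgs2 changed and Ptgs1 was not called. Each runs 5′ to 3′ on the gene's own strand from 250 bases before to 30 bases after the RefSeq start (build GRCm38.p6). Capitals mark matches to the motifs searched, which are spelled out after the sequences. Ptgs2 lies at chr1:150099781-150100060 (plus strand), Ptges at chr2:30903268-30903547 (minus strand) and Ptgs1 at chr2:36230176-36230455 (plus strand).
Ptgs2: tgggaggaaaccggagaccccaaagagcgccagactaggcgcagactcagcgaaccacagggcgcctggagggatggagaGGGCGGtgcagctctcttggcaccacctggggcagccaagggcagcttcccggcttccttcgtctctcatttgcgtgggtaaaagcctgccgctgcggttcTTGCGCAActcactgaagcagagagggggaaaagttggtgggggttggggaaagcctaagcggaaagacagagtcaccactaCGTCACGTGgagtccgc
Ptges: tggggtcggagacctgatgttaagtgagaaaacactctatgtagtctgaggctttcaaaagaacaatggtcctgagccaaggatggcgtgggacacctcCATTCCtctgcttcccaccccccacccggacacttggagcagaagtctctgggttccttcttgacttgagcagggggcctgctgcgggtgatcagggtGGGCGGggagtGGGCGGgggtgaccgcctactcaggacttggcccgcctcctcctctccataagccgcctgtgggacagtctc
Ptgs1: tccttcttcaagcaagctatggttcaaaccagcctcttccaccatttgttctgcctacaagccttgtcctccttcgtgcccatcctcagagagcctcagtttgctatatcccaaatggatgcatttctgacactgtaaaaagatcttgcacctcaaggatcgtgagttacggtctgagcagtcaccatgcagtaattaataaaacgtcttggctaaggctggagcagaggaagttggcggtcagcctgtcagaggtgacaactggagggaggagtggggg

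Windows of 300 bases, from 250 before to 50 after the start, were searched on both strands for 10 motifs. The Ptgs2 window held a C/EBP motif (TTGCNNAA) at -69 to -62, a motif that 10.8% of 32851 mouse promoters of the same length also held. It also held the core of a cAMP response element (TGACG, 20.8% of promoters) on the opposite strand at 14 to 18, overlapping an E-box (CACGTG, 7.15%) at 17 to 22, and an Sp1 motif (GGGCGG, 35.7%). The Ptges window held a TEAD motif (GGAATG, 14.7%) on the opposite strand at -151 to -146; TEAD proteins are the DNA-binding partners of YAP and TAZ. It also held 2 Sp1 motifs. The Ptgs1 window held none of the 10. Among the other members, the Ptgds window held an AP-1 motif (TGANTCA, 7.81%), the Hpgd window a TATA motif (TATAAA, 13.6%) and an Sp1 motif, and Ptgis was not in the table. The full cAMP response element (TGACGTCA, 1.79%), an NF-kappaB motif (GGG, any 3 bases and TTCC, 5.56%) and a STAT motif (TTCNNNGAA, 8.3%) had no match in the 5 windows. These matches describe letters only.

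In the GENCODE annotation of GRCm38, Ptgs2 (ENSMUSG00000032487) lies on chromosome 1 from 150100031 to 150108227. Ptgs1 (ENSMUSG00000047250), Ptges (ENSMUSG00000050737), Ptgis (ENSMUSG00000017969) and Ptgds (ENSMUSG00000015090) lie on chromosome 2, from 36230426 to 36252272, 30889471 to 30929863, 167191805 to 167240604 and 25466709 to 25470046, respectively. Hpgd (ENSMUSG00000031613) lies on chromosome 8 from 56294585 to 56321043. The GENCODE span of Ptges, on the minus strand, reaches further upstream than the RefSeq start used for its promoter window. The exon length behind its level per kilobase can thus include exons upstream of that start. Ptgs1 shares 148 exon bases with Gm43621 and Ptgis shares 156 with 1110018N20Rik, both on the opposite strand. Whether the counting used strand is not given in the sources used here, so reads in those stretches could not be assigned with certainty.

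Library totals ranged from 11418262 to 23074547 counts. Yap1 and Wwtr1 (Taz) were lower in all YT-iKO than in all CTRL libraries of the same surgery, Wwtr1 by 1.88 on the log2 scale in either condition (adjusted p = 0.00381 after sham and 0.00356 after MCAo, edgeR quasi-likelihood test), which matched the labels. The 8 endothelial markers summed to between 8150 and 16118 CPM (library-size-normalised counts), and the 7 pericyte markers to between 527 and 1571 CPM. The pericyte sums overlapped between surgeries, at 773 to 977 CPM in CTRL sham and 580 to 1571 in CTRL MCAo. In YT-iKO they were 563 to 917 CPM after sham and 527 to 1257 after MCAo. The part of pericytes in the levels below was not tested. Libraries differed in the density of reads on 1560 olfactory, vomeronasal and taste receptor genes, which bECs are not known to use. This background density ranged from 0.0413 to 0.422 CPM per kilobase of exon, and it exceeded 0.25 in 5 libraries, namely replicates 2 and 3 of CTRL MCAo, replicates 2 and 3 of YT-iKO MCAo and replicate 3 of YT-iKO sham. The cut of 0.25 was chosen after the data were seen, and it removes replicates 2 and 3 of both MCAo groups. For the genes named below, calls that changed without these 5 libraries are given with their values. Such calls are descriptive and no separate support.

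Levels of the 6 genes are comparable with each other only per length, so they are given here as CPM per kilobase of exon over all 16 libraries. Ptgs2 was the most abundant at a median of 10.1 CPM per kilobase (range 5.02 to 36.3), followed by Ptges at 3.43 (2.45 to 8.16), Ptgis at 2.46 (1.53 to 2.81), Ptgs1 at 1.57 (0.888 to 3.25), Ptgds at 0.687 (0.113 to 1.37) and Hpgd at 0.409 (0.148 to 1.46). Ptgs2 exceeded Ptges in 16 of 16 libraries, Ptges exceeded Ptgis in 15, Ptgis exceeded Ptgs1 in 14, Ptgs1 exceeded Ptgds in 15 and Ptgds exceeded Hpgd in 12. The ranges of all neighbours in this order overlapped. The inducible cyclooxygenase was therefore the main one by mRNA in every library of these dissociated and sorted cells, sham included. Undissociated tissue and unoperated mice were not among the libraries, so the level in undisturbed endothelium was not measured.

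**Figure D1:**
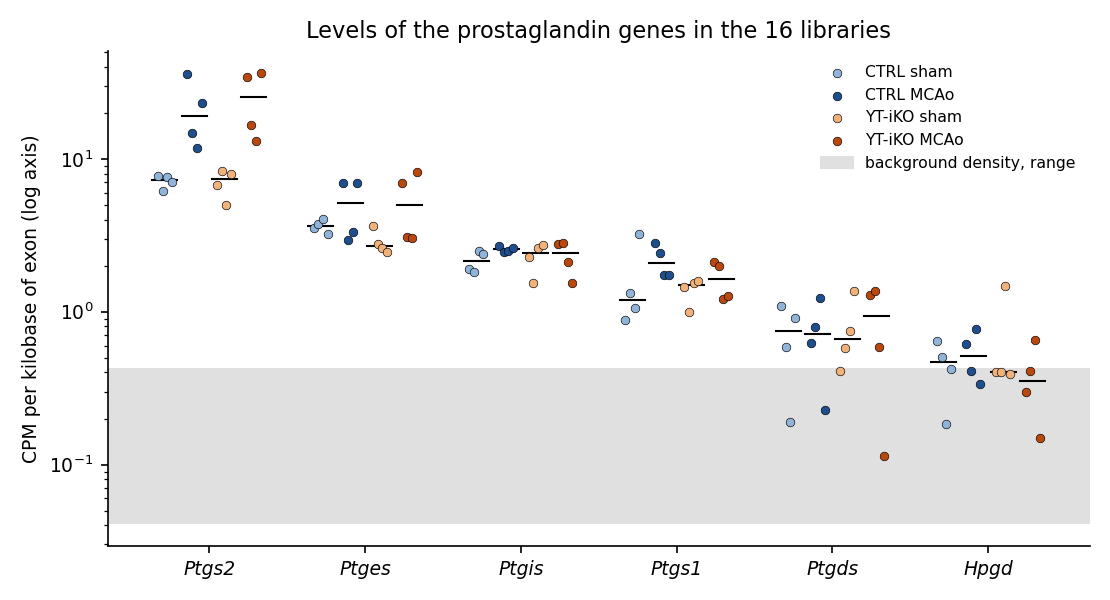
Levels of the 6 prostaglandin genes in CPM per kilobase of exon (log axis) for the 16 libraries, coloured by group. Black bars mark group medians and the grey band spans the background density of the libraries (0.0413 to 0.422), into which points of Ptgds and Hpgd fall and no point of the other 4 genes.

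Of the counts of both cyclooxygenases, Ptgs2 made up 91.1%, 84.6%, 89.4% and 71.8% in CTRL sham replicates 1 to 4 and 84.7%, 90.8%, 79.2% and 85.5% in YT-iKO sham. After MCAo its share was 93.8%, 87.8%, 88.8% and 94.1% in CTRL and 95.03%, 90.7%, 92.7% and 97.1% in YT-iKO. The sham and MCAo ranges overlapped in both genotypes. Normalised for exon length, Ptgs2 stood at 5.68 ± 2.88 times Ptgs1 in CTRL sham and 9.76 ± 3.87 times in CTRL MCAo, and at 5.32 ± 2.18 times in YT-iKO sham and 15.95 ± 9.08 times in YT-iKO MCAo (SD, n = 4).

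Ptgs2, the rate-limiting inducible enzyme of the pathway, was measured at 35.5, 28.1, 34.8 and 32.2 CPM in CTRL sham replicates 1 to 4 and at 164, 67.4, 54.0 and 107 CPM in CTRL MCAo. It was measured at 30.8, 38.3, 23.0 and 36.4 CPM in YT-iKO sham and at 157, 75.8, 59.6 and 166 CPM in YT-iKO MCAo. Every MCAo library lay above every sham library, and within either genotype the MCAo libraries of replicates 1 and 4 lay above those of replicates 2 and 3. The counts behind these values ran from 355 to 3139. Mean levels were 32.7 ± 3.33 and 32.2 ± 6.88 CPM after sham in CTRL and YT-iKO, and 98.0 ± 49.3 and 115 ± 54.8 CPM after MCAo (SD, n = 4), so the spread was wide after MCAo and narrow after sham.

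In the edgeR quasi-likelihood model of all 4 groups, with Benjamini-Hochberg adjustment over 31085 genes and a threshold of 0.1, Ptgs2 rose after MCAo in CTRL by 1.59 ± 0.33 on the log2 scale (SE; 95% interval 0.89 to 2.28; adjusted p = 0.0581). It rose in YT-iKO by 1.84 ± 0.33 (1.14 to 2.53; adjusted p = 0.0164). It was 1 of 6 members called in CTRL, where 0.216% of all tested genes were called and 0.183% were called higher, and 1 of 6 in YT-iKO, where the shares were 0.318% and 0.277%. Of the 57 genes called higher in CTRL and the 86 called higher in YT-iKO, 37 were shared (64.9% and 43.0% of the respective list), and Ptgs2 was the member among them. By fold change it ranked 45 of the 57 and 51 of the 86. Ptgs2 was also the 1 member whose sham and MCAo libraries did not overlap, against 4.14% of tested genes in CTRL and 1.28% in YT-iKO, and its exact permutation p on log2(CPM + 1) was 0.0286 in either genotype, two-sided, the smallest that 4 against 4 can give. Ptgs2 also did not overlap with RLE factors or with TMM factors from abundant genes, whereas with RLE factors Ptgis did not overlap in CTRL either, and with abundant-gene factors Ptges did not overlap in YT-iKO.

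**Figure D2:**
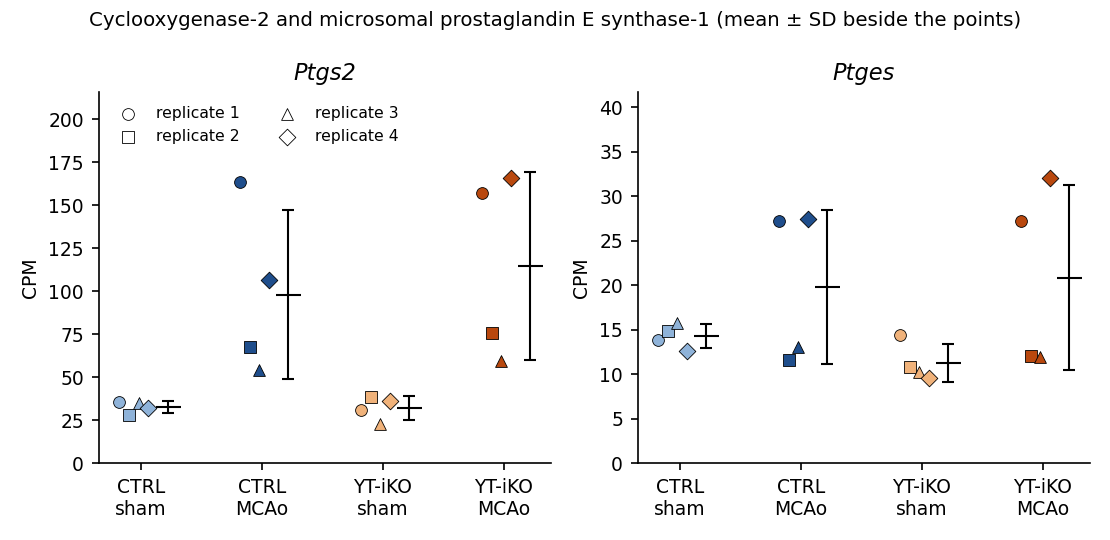
CPM of Ptgs2 and Ptges in every library, by group and replicate number, with the group mean ± SD (n = 4) beside the points. All 8 MCAo libraries exceed all 8 sham libraries for Ptgs2, whereas for Ptges the MCAo libraries split into 4 at 27.2 to 32.1 CPM and 4 at 11.6 to 13.1 CPM.

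The call for Ptgs2 in YT-iKO held whichever library was left out (log2 fold change 1.53 to 2.05, adjusted p 0.00249 to 0.0827). With 1 library left out, the call in CTRL was less secure. Its adjusted p rose above 0.1 without CTRL MCAo replicate 1 (0.171) or 4 (0.238) or without YT-iKO sham replicate 4 (0.107). The same happened without CTRL sham replicate 1 (0.151), 2 (0.385), 3 (0.149) or 4 (0.119). The log2 fold change in CTRL stayed between 1.27 and 1.75. DESeq2 gave 1.59 (adjusted p = 1.4e-04) and 1.80 (4.2e-06), and limma-voom with quality weights gave 1.11 (2.3e-04) and 0.98 (0.0161), while calling 0.714% and 0.859% of all tested genes (DESeq2) and 24.2% and 18.1% (limma-voom). With only the 2 groups compared in the fit, the YT-iKO call was lost (1.72, adjusted p = 0.112). At the threshold of 0.1, the CTRL call held in all 10 alternatives other than leaving out 1 library (adjusted p 4.4e-07 to 0.0384). The fit without the 5 libraries of high background density was among these. The plot of Ptgs2 under each setting shows these values.

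**Figure D3:**
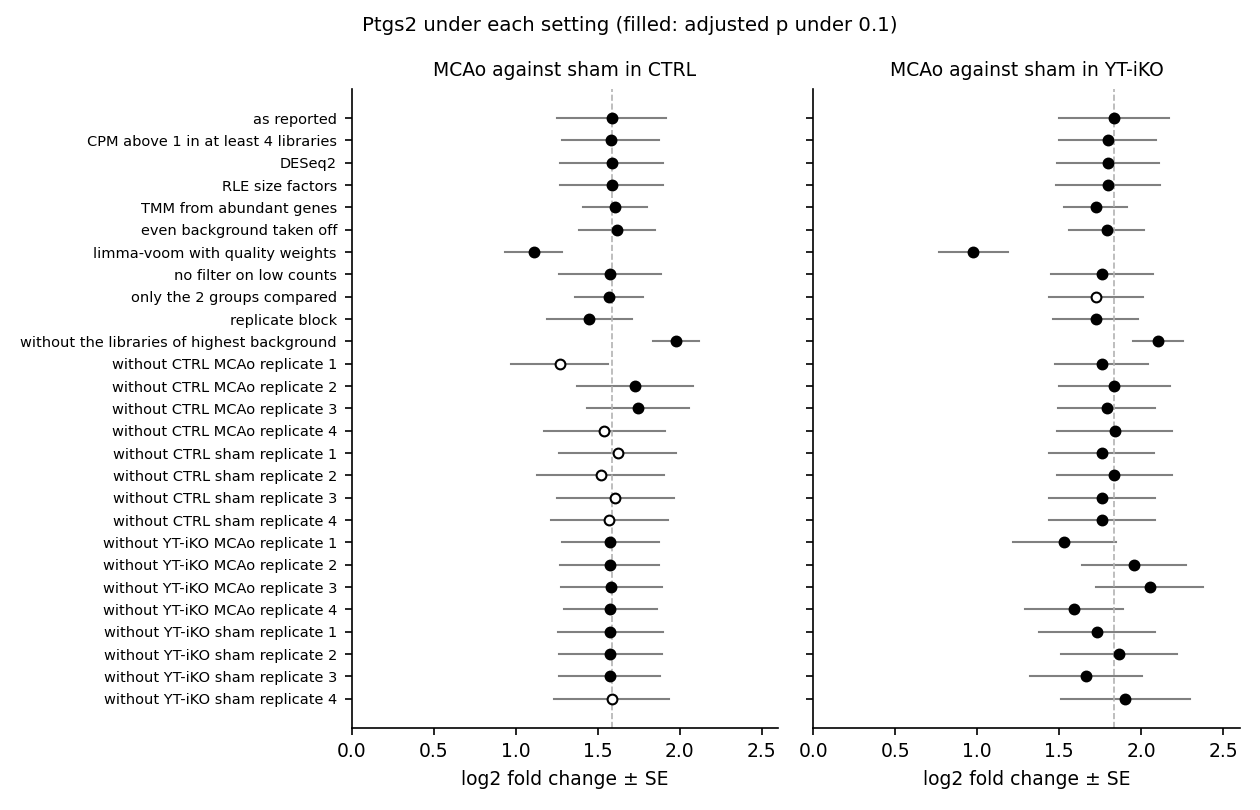
Log2 fold change of Ptgs2 after MCAo in CTRL and in YT-iKO as reported and under each alternative, with its SE. Filled points have an adjusted p under 0.1. The estimates lie between 0.98 and 2.10 throughout, and open points are the settings in which the call is lost.

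The size of the Ptgs2 rise moved with background density among the MCAo libraries. The 4 MCAo libraries at 0.0413 to 0.193 CPM per kilobase had Ptgs2 at 107 to 166 CPM, and the 4 at 0.290 to 0.413 had it at 54.0 to 75.8 CPM. Without the 5 libraries above 0.25, the rise was 1.98 ± 0.14 in CTRL (adjusted p = 4.4e-07) and 2.10 ± 0.15 in YT-iKO (4.7e-07), with 2 MCAo libraries left in each genotype and 3.05% and 6.23% of all tested genes called. That fit kept the 4 MCAo libraries with the highest Ptgs2, so its larger rise is no separate support. After subtraction of the counts expected from the background density, the rise was 1.62 (adjusted p = 0.00132) and 1.79 (5.3e-04). Counted per 1000 counts of the 8 endothelial markers in the same library, a scale that needs no library factor, Ptgs2 stood at 1.91 to 2.48 in CTRL sham, 5.49 to 10.2 in CTRL MCAo, 2.10 to 3.08 in YT-iKO sham and 5.86 to 11.9 in YT-iKO MCAo, again without overlap. The same 2 sets of 4 MCAo libraries also differed in library total (18662626 to 23074547 counts for those of low density and 11418262 to 12791352 for those of high density), in TMM factor (0.743 to 0.865 and 1.14 to 1.40) and in the endothelial marker sum (13178 to 16118 and 8328 to 10180 CPM). The part of density, depth, scaling or endothelial share in the spread was not tested.

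**Figure D4:**
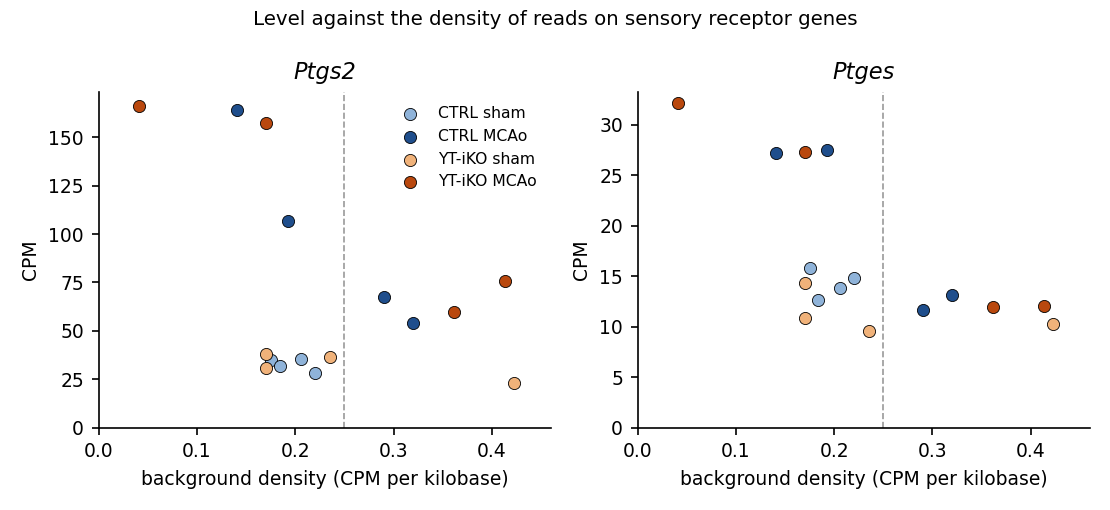
CPM of Ptgs2 and Ptges against the background density of each library (CPM per kilobase of exon on olfactory, vomeronasal and taste receptor genes), coloured by group. The dashed line marks 0.25, above which both genes are lower in the 4 MCAo libraries than in the other 4 MCAo libraries.

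Of the myeloid cells, which can also express Ptgs2, the microglia and macrophage list (8 genes) overlapped between surgeries, at 20.0 to 34.4 CPM in CTRL sham, 20.4 to 27.6 in CTRL MCAo, 17.6 to 33.8 in YT-iKO sham and 21.6 to 31.1 in YT-iKO MCAo. The monocyte and neutrophil list was higher after MCAo without overlap. Its 7 markers summed to 13.8 to 17.9 CPM in CTRL sham, 32.8 to 45.4 in CTRL MCAo, 12.2 to 23.1 in YT-iKO sham and 30.5 to 117 in YT-iKO MCAo. Lcn2, the iron-binding lipocalin, made up 54.9% to 67.4% of this sum in CTRL sham, 60.5% to 91.3% in CTRL MCAo, 31.7% to 65.8% in YT-iKO sham and 59.5% to 98.2% in YT-iKO MCAo, and without it the other 6 summed to at most 13.5 CPM in any library and the sham and MCAo ranges overlapped in both genotypes. Of these other 6, S100a8 reached at most 1.68 CPM, S100a9 0.842, Plac8 1.54, Ly6c2 2.85, Csf3r 4.79 and Ccr2 5.20 CPM. The sort was gated on CD45- cells, and the purity it reached is not given in the sources used here. The part of myeloid cells in the level of Ptgs2 was not tested. The 6 platelet markers summed to 6.58 to 9.51 CPM in CTRL sham and 12.3 to 14.98 in CTRL MCAo, and to 7.37 to 17.2 in YT-iKO sham and 13.3 to 17.3 in YT-iKO MCAo. The 6 neuron markers were lower after MCAo in CTRL without overlap (37.0 to 44.4 CPM after sham and 27.8 to 36.4 after MCAo). In YT-iKO the neuron sums overlapped (43.4 to 65.3 CPM after sham and 26.9 to 53.3 after MCAo). The part of platelets and neurons in the level of Ptgs2 was not tested. In these bulk samples, more RNA per cell and more cells of a type cannot be told apart.

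The non-coding gene Ptgs2os, singled out after its values were seen, begins 68 bases upstream of Ptgs2 and is transcribed in the opposite direction (chromosome 1, 150074873 to 150099963). It was measured at 1.07 to 5.51 CPM in the 16 libraries. Its log2 fold change after MCAo was 0.29 ± 0.38 in CTRL (adjusted p = 1.00) and 0.07 ± 0.37 in YT-iKO (1.00; edgeR), so no change of this neighbour was detected beside that of Ptgs2.

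Ptges, which couples to COX-2 to make prostaglandin E, was measured at 13.9, 14.8, 15.8 and 12.6 CPM in CTRL sham replicates 1 to 4 and at 27.2, 11.6, 13.1 and 27.4 CPM in CTRL MCAo. In YT-iKO it was measured at 14.4, 10.8, 10.2 and 9.62 CPM after sham and at 27.2, 12.1, 11.9 and 32.1 CPM after MCAo. Replicates 1 and 4 of either MCAo group lay above all 8 sham libraries, and replicates 2 and 3 lay among them. With TMM factors from abundant genes, Ptges stood at 14.7 to 23.9 CPM in YT-iKO MCAo and 10.1 to 13.7 CPM in YT-iKO sham, without overlap, and in CTRL only MCAo replicate 2 (13.6 CPM) did not exceed the highest sham library (14.4 CPM). With the factors used here, mean levels were 14.3 ± 1.36 and 11.3 ± 2.12 CPM after sham in CTRL and YT-iKO, and 19.8 ± 8.66 and 20.8 ± 10.4 CPM after MCAo (SD, n = 4).

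The log2 fold change of Ptges after MCAo was 0.48 ± 0.31 in CTRL (95% interval -0.17 to 1.12; adjusted p = 1.00) and 0.89 ± 0.31 in YT-iKO (0.24 to 1.53; unadjusted p = 0.00976, adjusted p = 0.788, edgeR). Exact permutation p was 0.400 and 0.143. It was called in YT-iKO with factors computed from abundant genes alone (0.75, adjusted p = 0.0784), with which 1.72% of tested genes were called. Without the 5 libraries of background density above 0.25 it was called in both genotypes (0.88 ± 0.15, adjusted p = 0.00375, and 1.25 ± 0.16, 1.9e-04), in a fit that called 3.05% and 6.23% of all tested genes, and limma-voom, which weights libraries by their quality, gave -0.07 and 0.15. The 4 MCAo libraries with Ptges at 27.2 CPM or more were those below 0.25. The fit without the 5 libraries thus kept only MCAo libraries in which Ptges was high. Its larger values follow from that choice and are no separate support. The part of background density in the split was not tested. Counted per 1000 endothelial marker counts, Ptges stood at 0.929 to 1.11 in CTRL sham and 1.15 to 1.83 in CTRL MCAo, without overlap, and at 0.798 to 1.26 in YT-iKO sham and 1.17 to 2.07 in YT-iKO MCAo, with overlap.

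The ratio of Ptgs2 to Ptges within a library does not depend on the scaling between libraries, and it was higher in every MCAo library than in any sham library. Normalised for exon length it was 2.20, 1.63, 1.89 and 2.19 in CTRL sham and 5.17, 4.97, 3.54 and 3.34 in CTRL MCAo. In YT-iKO it was 1.84, 3.03, 1.93 and 3.25 after sham and 4.96, 5.38, 4.30 and 4.44 after MCAo. The MCAo libraries of replicates 2 and 3, in which both genes were lowest after MCAo, were thus also above the sham libraries. Across the 16 libraries, Pearson's r of Ptgs2 and Ptges on log2(CPM + 1) was 0.81 (Spearman's rho 0.44), and r of their deviations from the group means was 0.85. This is a description of libraries that share depth and background, and no p is attached.

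Ptgs1, the cyclooxygenase of platelets and of resting vessels, was measured at 3.45, 5.13, 4.12 and 12.6 CPM in CTRL sham replicates 1 to 4 and at 10.9, 9.37, 6.78 and 6.74 CPM in CTRL MCAo. In YT-iKO it was measured at 5.59, 3.88, 6.03 and 6.19 CPM after sham and 8.23, 7.77, 4.73 and 4.92 CPM after MCAo. Its groups overlapped in all 4 comparisons, and CTRL sham replicate 4 was the highest of all 16 libraries. The log2 fold change after MCAo was 0.42 ± 0.34 in CTRL (95% interval -0.29 to 1.12) and 0.25 ± 0.34 in YT-iKO (-0.46 to 0.95), so a change of up to about the size of 2.17-fold in CTRL was within the interval. Without CTRL sham replicate 4 the value in CTRL was 1.01, and limma-voom with quality weights gave 0.70 and called it (adjusted p = 0.0694), a setting in which 24.2% of all tested genes were called. The platelet marker sum given above also differed between CTRL sham and CTRL MCAo, and its part in the level of Ptgs1 was not tested.

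With the factors used here, Ptgis, the prostacyclin synthase of vessel walls, varied least among the libraries. It was measured at 4.92, 4.67, 6.37 and 6.11 CPM in CTRL sham, 6.90, 6.27, 6.38 and 6.74 CPM in CTRL MCAo, 5.83, 3.93, 6.67 and 6.98 CPM in YT-iKO sham and 7.07, 7.21, 5.44 and 3.93 CPM in YT-iKO MCAo. The groups overlapped in all 4 comparisons, except that with RLE factors CTRL sham (4.70 to 6.29 CPM) lay below CTRL MCAo (6.52 to 6.81 CPM). Its log2 fold change after MCAo was 0.25 ± 0.25 in CTRL (95% interval -0.26 to 0.77; exact permutation p = 0.0571) and 0.02 ± 0.25 in YT-iKO (-0.50 to 0.53; exact permutation p = 0.943). Ptgs2 after MCAo, with lower interval bounds of 0.89 and 1.14, lay above the upper bounds of Ptgis in both genotypes.

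**Figure D5:**
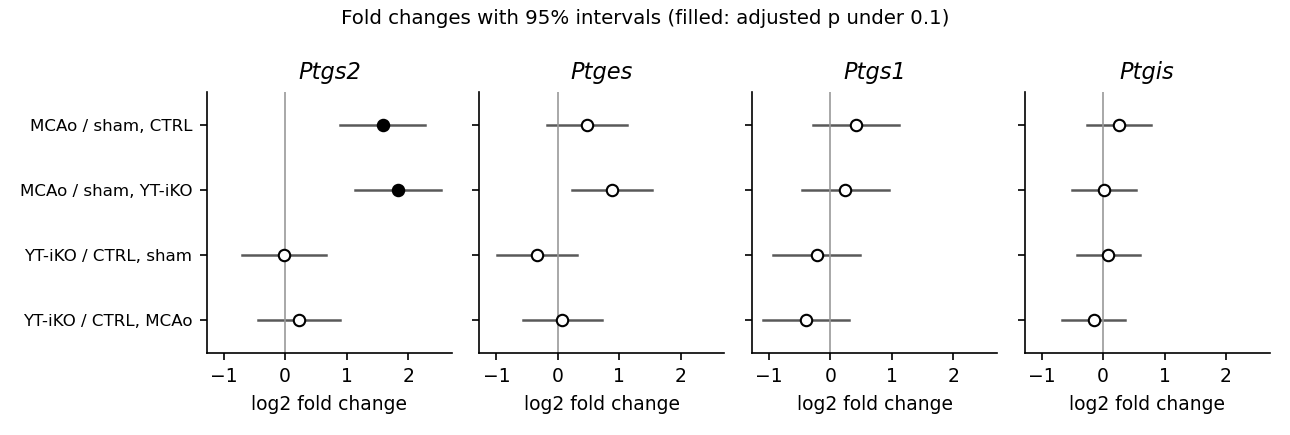
Log2 fold changes (points) with 95% intervals (lines) of Ptgs2, Ptges, Ptgs1 and Ptgis in the 4 comparisons between groups. Filled points, with an adjusted p under 0.1, are those of Ptgs2 after MCAo in CTRL (1.59) and in YT-iKO (1.84).

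Ptgds and Hpgd lay near the background. The counts that the background density predicts for their exon lengths made up a median of 33.3% of the observed counts of Ptgds (13.4% to 93.1%) and 43.3% of those of Hpgd (22.9% to 101%), against 2.51% for Ptgs2, 5.84% for Ptges, 9.70% for Ptgis and 15.7% for Ptgs1. They are therefore given as levels and not as fold changes. Ptgds, a major product of leptomeningeal cells, choroid plexus and oligodendrocytes, was measured with 3 to 42 counts, at 0.311 to 1.79 CPM in CTRL sham, 0.378 to 2.03 in CTRL MCAo, 0.675 to 2.24 in YT-iKO sham and 0.187 to 2.26 in YT-iKO MCAo. All 4 ranges overlapped. Markers of its usual sources were low, with sums of 28.7 to 68.1 CPM for 7 fibroblast and leptomeningeal genes, 19.3 to 117 CPM for 6 choroid plexus genes and 20.9 to 43.0 CPM for 6 oligodendrocyte genes. The oligodendrocyte sum was higher after MCAo in CTRL without overlap (20.9 to 27.5 CPM after sham and 27.7 to 33.1 after MCAo). The other sums overlapped between surgeries in both genotypes, although the choroid plexus median in CTRL was 33.96 CPM after sham and 82.0 CPM after MCAo. Of the choroid plexus genes, Ttr averaged 19.3 CPM in CTRL sham and 54.5 CPM in CTRL MCAo, and the others stayed at or under 8.68 CPM in every library. The part of these cells in the level of Ptgds was not tested.

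Hpgd, which ends prostaglandin signaling by oxidising the hydroxyl group that receptors need, was measured with 4 to 38 counts. It lay at 0.311 to 1.09 CPM in CTRL sham, 0.567 to 1.29 in CTRL MCAo, 0.659 to 2.46 in YT-iKO sham and 0.249 to 1.10 in YT-iKO MCAo. The highest value, 2.46 CPM in YT-iKO sham replicate 3, belonged to the library with the highest background density, and the other 3 libraries of that group lay between 0.659 and 0.675 CPM. The groups overlapped, and exact permutation p was 0.571 for MCAo against sham in CTRL and 0.400 in YT-iKO. A change of Hpgd was not detected at these counts.

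The loss of YAP/TAZ was addressed by comparing YT-iKO with CTRL after the same surgery. The edgeR test called 0 of 6 members after sham and 0 of 6 after MCAo, against 0.0965% and 0.0708% of all tested genes. No member had an unadjusted p under 0.05 in either comparison, against 2.16% and 1.49% of all tested genes. DESeq2 and limma-voom also called 0, against 0.261% and 0.296% of all tested genes (DESeq2) and 0.46% and 0.827% (limma-voom). No member had groups without overlap, against 3.85% of tested genes after sham and 0.981% after MCAo. The intervals show what could have been missed. For Ptgs2 the log2 difference of YT-iKO from CTRL was -0.02 ± 0.33 after sham (95% interval -0.70 to 0.66) and 0.23 ± 0.32 after MCAo (-0.44 to 0.90). For Ptges it was -0.34 ± 0.31 after sham (-0.99 to 0.31) and 0.07 ± 0.31 after MCAo (-0.57 to 0.71).

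For Ptgs1 the difference between genotypes was -0.22 ± 0.34 after sham (-0.93 to 0.48) and -0.39 ± 0.34 after MCAo (-1.09 to 0.30), and for Ptgis it was 0.09 ± 0.25 (-0.43 to 0.60) and -0.15 ± 0.25 (-0.67 to 0.36). Differences of up to about 1.87-fold in Ptgs2 after MCAo therefore lay within the interval. The test of whether the MCAo response itself differed between genotypes called 0 of 6 members and 0% of the 31085 genes with edgeR. At an unadjusted p under 0.05 it held 0 members and 116 genes, and DESeq2 and limma-voom called 0 members and 0% of all tested genes. For Ptgs2 this difference was 0.25 ± 0.46 (-0.71 to 1.205) and for Ptges 0.41 ± 0.44 (-0.50 to 1.32), so a difference between the 2 responses was not detected and one of up to about 2.31-fold for Ptgs2 lay within the interval.

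The other genes of the pathway were taken from 5 lists with 63 names, of which 61 were in the table and tested. Of these, 0 were called after MCAo in CTRL (0.216% of all tested genes) and 1 was called, higher, in YT-iKO (0.318%), and 0 were called between genotypes after sham (0.0965%) or MCAo (0.0708%). The 9 alternatives that kept all libraries of the groups compared, 1 of which fitted only those 2 groups, tested 59 to 61 of these genes. They called 1 to 21 in CTRL and 0 to 12 in YT-iKO, the highest counts with limma-voom, which called 24.2% and 18.1% of all tested genes. Between genotypes, 0 to 2 were called after MCAo, where these alternatives called 0.0784% to 0.827% of all tested genes, and 0 after sham. Without the 5 libraries of high background density, 5 were called in CTRL (3.05% of all tested genes), 8 in YT-iKO (6.23%), 1 between genotypes after MCAo (0.396%) and 0 after sham. At an unadjusted p under 0.05 the edgeR counts were 5 in CTRL and 5 in YT-iKO after MCAo, 2 between genotypes after sham and 4 after MCAo, where 3.50%, 3.01%, 2.16% and 1.49% of all tested genes were under that value. Their median log2 fold change after MCAo was 0.10 in CTRL and -0.02 in YT-iKO, beside medians of 0.07 and -0.02 over all tested genes. The 1 called gene was Ptgfrn, a membrane protein named for its effect on the prostaglandin F receptor. Its mean levels were 94.7 ± 3.77 and 83.5 ± 19.6 CPM after sham in CTRL and YT-iKO, and 243 ± 95.2 and 264 ± 146 CPM after MCAo (SD, n = 4), and the sham and MCAo libraries did not overlap in either genotype. The log2 fold change was 1.36 ± 0.33 in CTRL (adjusted p = 0.148) and 1.66 ± 0.33 in YT-iKO (adjusted p = 0.0313). In CTRL it was called in 9 of the 9 alternatives above (log2 fold change 0.99 to 1.40, adjusted p 9.1e-05 to 0.0901, DESeq2 0.00150). It was also called there in 7 of 16 fits without 1 library (any YT-iKO MCAo replicate, YT-iKO sham replicate 1 or 3, or CTRL MCAo replicate 3). The missing call in CTRL thus holds for the model as reported. In YT-iKO the call was lost without YT-iKO MCAo replicate 1 (1.42, adjusted p = 0.130), without YT-iKO sham replicate 2 (1.56, 0.131) or 4 (1.64, 0.201), and with only the 2 groups in the fit (1.54, 0.202). The call held in the other 8 of the 9 alternatives. Without the 5 libraries of high background density it was called in both genotypes (1.69, adjusted p = 1.5e-06, and 2.00, 5.6e-07).

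Upstream of the cyclooxygenases, the 16 genes of arachidonate release held no call in the model as reported. Pla2g4a, the cytosolic phospholipase that supplies them, was at 54.2 ± 2.52 CPM in CTRL sham and 64.0 ± 19.6 in CTRL MCAo, and at 53.9 ± 10.4 and 77.6 ± 23.3 CPM in YT-iKO (SD, n = 4; log2 fold changes 0.24 and 0.53, adjusted p = 1.00 for either, edgeR). It was called in YT-iKO with TMM factors from abundant genes and with background subtracted, and in both genotypes without the 5 libraries of high background density (0.50, adjusted p = 0.0407, and 0.57, 0.0163). Mgll, the lipase that frees arachidonate from endocannabinoid in brain, had log2 fold changes of -0.59 ± 0.22 and -0.33 ± 0.22 (adjusted p = 0.985 and 1.00), and Plaa, the phospholipase A-activating protein, had -0.09 and 0.05. Of the 9 other prostanoid synthases tested none was called in this model. The most abundant were Ptges3, the cytosolic prostaglandin E synthase and HSP90 co-chaperone p23 (mean 94.7 CPM), Akr1b3 (17.1 CPM), an aldo-keto reductase, and Cbr1 (16.4 CPM), a carbonyl reductase, with log2 fold changes after MCAo between -0.16 and 0.08. Of the genes named here, limma-voom called Mgll, Ptges3 and Cbr1 in CTRL and Plaa and Cbr1 in YT-iKO.

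Transport was represented by abundant genes of the blood-brain barrier, none of them called in the model as reported. Abcc4, an efflux pump that carries prostaglandin E among other anions, had a mean of 902 CPM and log2 fold changes after MCAo of -0.20 and 0.08. Slco2b1, an organic anion uptake transporter, had a mean of 387 CPM and changes of 0.55 ± 0.27 and 0.46 ± 0.27. It was called in CTRL in 2 of the 9 alternatives that kept all libraries of the groups compared. Without the 5 libraries of high background density it was called in both genotypes (0.81, adjusted p = 0.00654, and 0.56, 0.0732). Slc22a8, the organic anion transporter OAT3, had a mean of 437 CPM, and its sham and MCAo libraries did not overlap in either genotype. Its log2 fold change was -0.63 ± 0.24 in CTRL (adjusted p = 1.00) and -0.91 ± 0.24 in YT-iKO (unadjusted p = 0.00107, adjusted p = 0.230). It was called in 4 and in 5 of these 9 alternatives, and in YT-iKO also without YT-iKO sham replicate 3 (0.0295). Without the 5 libraries of high background density it was called in both (-0.54, adjusted p = 0.0750, and -1.02, 7.9e-04). After MCAo, Slc22a8 stood at 409 ± 62.8 CPM in CTRL and 245 ± 43.9 CPM in YT-iKO (SD, n = 4), and these groups did not overlap. This difference between genotypes was -0.74 ± 0.24 on the log2 scale (unadjusted p = 0.00565, adjusted p = 1.00, edgeR). It was called, lower in YT-iKO, in 4 of those 9 alternatives (adjusted p 0.0159 to 0.936 over the 9), in 0 of 16 fits without 1 library, and without the 5 libraries (-0.79, adjusted p = 0.0738). DESeq2, the tool of the study, was among the 4, and the study also lists Slc22a8 as lower in YT-iKO after MCAo. Slco2b1 differed between genotypes after MCAo by -0.58 ± 0.27 (unadjusted p = 0.0456, adjusted p = 1.00), with overlapping groups, and was called in 3 of the 9. The other 2 pathway genes with an unadjusted p under 0.05 in that comparison were higher in YT-iKO, Slco2a1 by 1.25 ± 0.43 (unadjusted p = 0.00798) and Ptger4 by 0.51 ± 0.24 (unadjusted p = 0.0455), with overlapping groups, and each was called in 0 of the 9 and not without the 5 libraries. The value of Slco2a1 fell to 0.62 without YT-iKO MCAo replicate 1, was 1.76 at most with 1 library left out (CTRL MCAo replicate 1), and lay between 0.56 and 1.296 in the 9 alternatives. Slco2a1, the prostaglandin uptake transporter, singled out after its values were seen, stood at 17.8 ± 4.45 CPM in CTRL sham and 35.9 ± 25.3 CPM in CTRL MCAo, with overlap, and at 24.4 ± 4.20 CPM in YT-iKO sham and 85.4 ± 63.1 CPM in YT-iKO MCAo, without overlap. Its log2 fold change in CTRL was 1.01 ± 0.43 (unadjusted p = 0.0281, adjusted p = 1.00, edgeR) and was called in 2 of the 9. In YT-iKO it was 1.81 ± 0.43 (adjusted p = 0.120), with 0.65 to 1.81 over the 9 alternatives, and the difference between these responses, 0.80 ± 0.60, was not called (adjusted p = 1.00). With 1 library left out, the CTRL value lay between 0.44 (without CTRL MCAo replicate 1) and 1.18, and the YT-iKO value between 1.16 (without YT-iKO MCAo replicate 1) and 2.09. Without the 5 libraries both were called (1.36, adjusted p = 0.0303, and 2.47, 2.7e-04). The YT-iKO value was called in 6 of the 9, the replicate block among them (adjusted p 0.0310 to 0.518 over the 9), and without YT-iKO MCAo replicate 2, 3 or 4 or CTRL MCAo replicate 1. The list of receptors also held Ptgfrn, which is not itself a prostanoid receptor. Of the receptors proper, Tbxa2r (thromboxane) and Ptger4 (prostaglandin E) were the most abundant, at 10.1 and 6.07 CPM, with log2 fold changes between -0.10 and 0.42. In the lipoxygenase and epoxygenase branches, which compete for arachidonate, 0 of 18 genes were called in the model as reported. Alox12, the 12-lipoxygenase, had -0.59 ± 0.20 in CTRL (adjusted p = 0.811) and -0.38 ± 0.20 in YT-iKO (1.00), Ephx1 had -0.38 and -0.31, and Lta4h, the leukotriene A4 hydrolase, had -0.12 and -0.01. Alox12 was called in CTRL with only the 2 groups in the fit, in YT-iKO without the 5 libraries (-0.62, adjusted p = 0.0444), and in both genotypes with limma-voom. Ephx1 was called in YT-iKO with TMM factors from abundant genes and in both genotypes with limma-voom, which also called Lta4h in YT-iKO and Abcc4 in CTRL.

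The genes whose levels over the 16 libraries were most like those of each member were ranked by Pearson's r of log2(CPM + 1) among tested genes averaging at least 10 CPM. For Ptgs2 they were Zfp36l2 (r = 0.98), an mRNA-decay protein, Ace (0.98), the angiotensin-converting enzyme of endothelium, and Xbp1 (0.97), a transcription factor of the unfolded protein response. For Ptges they were Cdr2l, Nop53 and Eif1a, with r of 0.96, 0.95 and 0.95. For Ptgs1, Ltbp3 and Col13a1 ranked highest, each with r of 0.90. The weaker leaders were Dsp, Fbn1 and Dpy19l3 for Ptgis (0.71 to 0.68), Map2, Acp6 and Dock10 for Ptgds (0.74 to 0.67), and Dock10, Dnah7c and Slit2 for Hpgd (0.78 to 0.73). Ranked instead by deviations from the group means, 0 of the 3 leaders of Ptgs2 and 0 of 3 of Ptges were the same genes, against 2 of 3 for Ptgis and Hpgd and 1 of 3 for Ptgds. The leaders of Ptgs2 and Ptges thus depended on whether the group means were kept.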

How the data were processed

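RNA from sorted bECs was prepared with a low-input full-length kit without molecular identifiers, sequenced in pairs, and aligned with STAR 2.7.8a to GRCm38, per the labels and the study's methods; the counting program, its strand setting and any filter are not given in the sources used here. The deposited values are raw counts per gene, which the authors had not normalized (37003 genes, 16 libraries). From these, edgeR 4.0.16 computed TMM factors and CPM. Genes were kept by filterByExpr (31085), and 1 quasi-likelihood model of the 4 groups gave 5 comparisons, called at an adjusted p under 0.1, the study's threshold. The code was tested on simulated data. DESeq2 1.42.0, limma 3.58.1 (voom), other scalings and filters, a replicate block and each library left out were alternatives. Two-sided exact permutation tests enumerated 70 assignments. Named genes are the 6 members, Yap1, Wwtr1, pathway genes that were called or among the 3 most abundant of their list, and for each member the 3 genes of highest r (1 of those for Ptgs1 is not reported here). Slco2a1, Ptgs2os and the markers Lcn2, S100a8, S100a9, Plac8, Ly6c2, Csf3r, Ccr2 and Ttr fall outside this rule and were named after their values were seen. Members and lists were chosen with earlier results of these data known. Replicates are pools of mice, so p-values measure the spread between these pools. Exon lengths came from GENCODE (GRCm38). RefSeq promoters matched 5 members. Counts are of amplified reads and not of molecules.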

Additional observations from a re-analysis of the deposited data

Results flagged for a closer look

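Within each group of 4, the highest or lowest library was compared with the others for each of the 6 genes, 24 comparisons in all, of which chance alone flags about 1 in 20. In 1 of them a library stood apart. Hpgd in YT-iKO sham replicate 3 was measured at 2.46 CPM (38 counts), while the other 3 libraries of that group lay between 0.659 and 0.675 CPM. That library also had the highest background density of the 16 (0.422 CPM per kilobase of exon), at which 11.0 counts were expected on Hpgd.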

How the results depend on the processing

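The number of members called after MCAo in CTRL (1, Ptgs2) became 0 at an adjusted p under 0.05 and 2 with limma-voom (Ptgs1 added; 24.2% of all tested genes called, against 0.216% as reported) and, chosen after seeing the data, without the 5 libraries of background density above 0.25 (Ptges added; 3.05%). In YT-iKO the 1 call became 0 with only the 2 groups compared and 2 with TMM factors from abundant genes (1.72% of all genes called, against 0.318% as reported) or without the 5 libraries (6.23%), Ptges being added in either. With 1 library left out, the count in CTRL ranged from 0 to 1 and the libraries are named above. The cause of these changes was not tested. The other 3 comparisons held 0 members under every alternative run. Replicate numbers are not stated to mark shared mice, and over 1000 genes 17 of 24 pairs of libraries with the same number had deviations from their group means that correlated above 0.1 (median r 0.259, against -0.128 for different numbers), and 9 of 16 libraries correlated best with their own number, a hint of structure shared by number. The fit as reported has no block, because the numbers are not stated to pair libraries. Any structure shared by number therefore stays in the spread of that fit. The replicate block raised the calls over all genes from 67 to 119 in CTRL and from 99 to 132 in YT-iKO after MCAo, and added Ptgfrn in CTRL (adjusted p = 0.0313) and Slco2a1 in YT-iKO. With the block, Ptgs2 rose by 1.45 in CTRL (adjusted p = 0.0122) and 1.72 in YT-iKO (adjusted p = 0.00146), and no call of a member changed.

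Some uncalled values changed sign, and not all of them were near 0. The sham difference of Ptgs2 between genotypes (-0.02) became 0.12 with TMM factors from abundant genes, 0.058 with limma-voom, 0.0030 with the CPM filter, 0.012 with only the 2 groups, 0.047 with background subtracted and 0.12 without the 5 libraries, and lay between -0.12 and 0.12 with 1 library left out. After MCAo it became -0.075 with limma-voom and lay between -0.056 and 0.48 with 1 library left out, and the difference between the responses became -0.13 and lay between -0.047 and 0.49. For Ptges, limma-voom gave -0.069 for MCAo in CTRL, which was 0.48 as reported. For YT-iKO against CTRL after MCAo it gave -0.12, and leaving out 1 library gave -0.21 to 0.27. For Ptgs1 between genotypes after sham (-0.22 as reported), limma-voom gave 0.013 and leaving out 1 library gave -0.42 to 0.36. For Ptgis in YT-iKO after MCAo (0.02), RLE factors gave -0.0011, no filter -0.019, only the 2 groups -0.015, and the fit without the 5 libraries -0.10, and leaving out 1 library gave -0.16 to 0.16. For Ptgis between genotypes after sham, leaving out 1 library gave -0.023 to 0.23. For Ptgds in YT-iKO after MCAo the direction turned with a pseudocount of 2 (exact permutation p = 0.914), and its fitted value, not printed above, turned in 6 alternatives there, in 5 in CTRL and in 11 for the difference between responses. At 3 to 42 counts, Ptgds and Hpgd allowed no statement on small changes.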
